A study of Rattus norvegicus with 21 samples.

Results

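Potassium channel genes are the genes whose symbols begin with Kcn, and they encode the pore-forming and accessory subunits of nearly all potassium channels. They were chosen by name and by signal: a probe set (the group of probes on the array that reads 1 gene) was taken when its annotation held exactly 1 symbol of this kind, and when its mean over all animals reached the 25th percentile of all probe sets with 1 symbol, a log2 value of 7.165. Where a gene had several such probe sets, the one with the highest mean stood for it. Of 83 genes with such a symbol, 72 passed this filter, out of 10804 genes tested in all. The 11 genes that stayed below it were Kcna7, Kcna10, Kcne1, Kcne3, Kcnj1, Kcnj5, Kcnj13, Kcnj15, Kcnk6, Kcnmb1 and Kcnmb3. Kcna10 lay just under the filter with a mean of 7.12, and Kcnv2 lay just above it with 7.28. One further probe set named both Kcnk5 and Kcnk16 and was not used.

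The RNA came from the dentate gyrus, the part of the hippocampus built around granule neurons, of male Wistar rats aged 2 months, 3 animals in each of 6 groups (18 animals). Control animals were untreated. The stress group was kept under unpredictable chronic mild stress for 6 weeks, and 4 further groups had the same stress and were injected daily into the peritoneum for the last 2 weeks with fluoxetine (10 mg/kg), imipramine (10 mg/kg), tianeptine (10 mg/kg) or agomelatine (40 mg/kg). The dose of agomelatine differed from the other doses, the vehicles were water, saline or hydroxyethylcellulose depending on the drug, and the labels do not say whether control and stress animals received injections, so drug, dose, vehicle and injection cannot be told apart. Each control animal was measured on a first and a repeat array, giving 21 arrays, and both were averaged.

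Potassium channels carry potassium out of the cell at rest and during the action potential, and so hold neurons near their resting potential and end each spike. Voltage-gated pores (families a, b, c, d, h and q) open on depolarisation, and related subunits of families f, g, s and v form no channel alone but alter family b pores. Inward rectifiers (family j) and leak channels with paired pore domains (family k) set the resting potential, while channels of families ma, n and t open on internal calcium or sodium. In the dentate gyrus these currents keep granule neurons hard to excite, and glial inward rectifiers clear potassium released by firing.

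Sequence upstream of the start site is shown for genes that fell (Kcna3, Kcnk4) or rose (Kcnma1, Kcnq5) between stress and agomelatine. In the RefSeq promoter table of assembly GRCr8, 49 of the 72 genes had an entry (54 start sites), 4 of them among the 9 genes that differed between agomelatine and stress. The 250 bases before each start are given 5′ to 3′ on the strand of the gene. Capitals mark matches on either strand to the letters GGGCGG (a GC box, bound by Sp-family factors) or TGACG (the core of a CREB site).
Kcna3 upstream sequence, chr2:197320074-197320323, plus strand: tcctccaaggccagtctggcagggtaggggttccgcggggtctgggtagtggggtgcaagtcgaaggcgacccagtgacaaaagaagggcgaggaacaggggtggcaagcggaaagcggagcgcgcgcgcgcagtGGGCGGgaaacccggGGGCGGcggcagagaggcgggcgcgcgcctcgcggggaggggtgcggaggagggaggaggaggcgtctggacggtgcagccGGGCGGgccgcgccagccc
Kcnk4 upstream sequence, chr1:213555862-213556111, minus strand: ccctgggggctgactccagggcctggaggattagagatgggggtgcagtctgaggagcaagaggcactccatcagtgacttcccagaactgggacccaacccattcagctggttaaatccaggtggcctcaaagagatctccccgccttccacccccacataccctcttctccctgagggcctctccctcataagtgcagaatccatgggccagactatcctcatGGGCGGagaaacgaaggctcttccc
Kcnma1 upstream sequence, chr15:351675-351924, plus strand: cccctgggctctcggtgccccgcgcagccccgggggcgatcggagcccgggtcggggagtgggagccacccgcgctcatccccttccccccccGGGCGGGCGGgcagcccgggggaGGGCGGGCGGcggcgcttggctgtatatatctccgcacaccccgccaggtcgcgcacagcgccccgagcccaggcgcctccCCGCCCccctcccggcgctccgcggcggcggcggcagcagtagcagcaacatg
Kcnq5 upstream sequence, chr9:31891282-31891531, minus strand: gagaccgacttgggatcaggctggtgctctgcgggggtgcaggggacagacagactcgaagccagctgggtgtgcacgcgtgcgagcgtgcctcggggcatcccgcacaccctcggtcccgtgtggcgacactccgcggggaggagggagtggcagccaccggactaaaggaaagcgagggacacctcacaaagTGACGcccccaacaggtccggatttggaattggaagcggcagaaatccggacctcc
The window of Kcna3 held 3 GC boxes, that of Kcnma1 held 5, some of them overlapping, that of Kcnk4 held 1 and that of Kcnq5 held none, with 1 CREB core instead. GC boxes occurred in 29 of the 54 potassium channel windows (53.7%), against 30.5% of 33469 windows of all genes, and the median GC content was 65.0% against 51.2%. The CREB core was found in 14.8% of the potassium channel windows and 18.2% of all windows. TATAAA, the letters of a TATA box, was in 0 of the 54 windows and in 12.9% of all, and AGAACA, the core of a glucocorticoid response element, was in 14.8% against 17.5%. No source used here names the build the array was designed on, so the windows describe the genes and not the probes.

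The values were log2 expression values made with RMA, which removes background, brings the arrays to a common distribution and merges probes into 1 value, and a log2 difference of 1 is a doubling. They ran from 3.57 to 14.4, and array medians over the tested genes from 9.21 to 9.35. Arrays have no read depth, so the number of animals limits precision. The tissue label was set against markers: granule neuron genes were present, from Pdzd2 at 9.7 to Prox1, their transcription factor, at 11.5 and C1ql2 at 11.7. CA pyramidal neuron genes were present as well, from Iyd at 7.23 to Cpne4 at 11.8, so presence alone cannot decide the label. A score was taken for each marker list, the mean over its genes of an animal's deviation from the gene's mean. The oligodendrocyte score (11 of 12 genes measured) was 0.39 to 0.71 in agomelatine animals and -0.19 to 0.04 in all others. The granule neuron score (5 of 7 genes) was -0.36 to -0.14 in agomelatine animals and -0.07 to 0.15 in the rest, and the CA pyramidal neuron score (8 of 10 genes) was 0.03, 0.37 and 0.43 in agomelatine animals, 0.30 in the third stress animal and at most 0.01 elsewhere. Choroid plexus genes (4 of 8) scored 3.46 in agomelatine animal 1 and 1.08 in stress animal 1, against values below 0 in every other animal. In bulk tissue fewer cells of a type and less RNA per cell cannot be told apart.

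**Figure D1:**
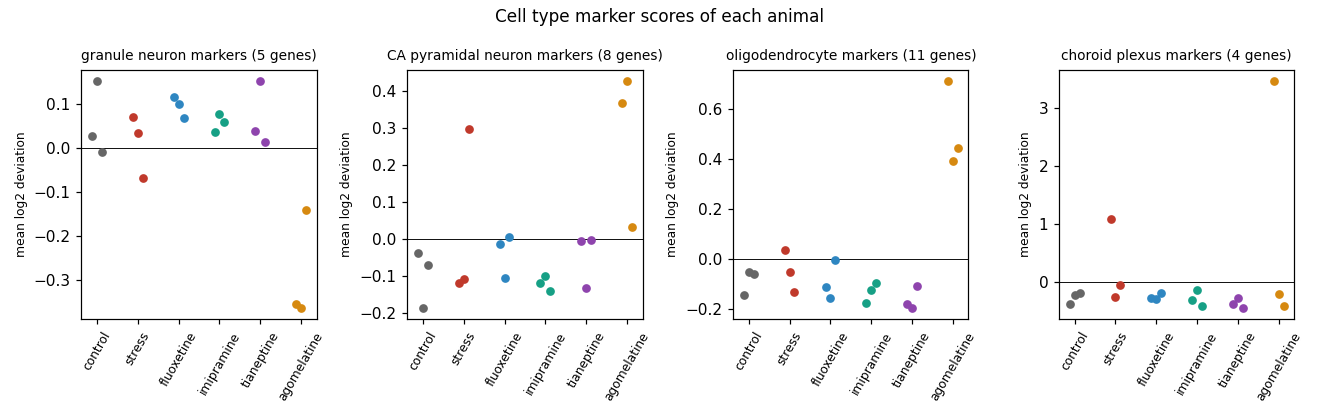
Mean log2 deviation of the measured marker genes of 4 cell types (y axis) in each of the 18 animals, by group (x axis). Agomelatine animals are the highest for oligodendrocyte markers (0.39 to 0.71) and the lowest for granule neuron markers (-0.36 to -0.14), and agomelatine animal 1 stands apart for choroid plexus markers (3.46).

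The 72 genes covered all the structural families. Voltage-gated pores gave 23 genes: Kcna1 to Kcna6 of the Shaker family, Kcnb2, Kcnc1, Kcnc2, Kcnd1 to Kcnd3, Kcnh1 to Kcnh8 of the ether-a-go-go family, Kcnq1, Kcnq3 and Kcnq5. The silent modifiers were Kcnf1, Kcng1 to Kcng4, Kcns1 to Kcns3, Kcnv1 and Kcnv2. Auxiliary subunits were the beta subunits Kcnab1 to Kcnab3, the single-span subunits Kcne2, Kcne4 and Kcne5, and the calcium-binding proteins Kcnip1 to Kcnip4. Calcium- or sodium-activated channels and their partners were Kcnma1, Kcnmb2, Kcnmb4, Kcnn1, Kcnn3, Kcnn4, Kcnt1 and Kcnt2. There were 11 inward rectifiers (Kcnj2, Kcnj3, Kcnj4, Kcnj6, Kcnj8, Kcnj9, Kcnj10, Kcnj11, Kcnj12, Kcnj14 and Kcnj16) and 10 leak channels (Kcnk1, Kcnk2, Kcnk3, Kcnk4, Kcnk9, Kcnk10, Kcnk12, Kcnk13, Kcnk15 and Kcnk18). Mean signals lay between 7.28 (Kcnv2) and 12.3 within this set, and signals of different probe sets are not compared.

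Some of these genes held a narrow band across the 18 animals. Kcnd2, the main A-type pore of granule neuron dendrites, ran only from 12.03 to 12.27, and Kcnj3, a G protein-gated rectifier subunit that mediates inhibition by serotonin and adenosine, from 12.19 to 12.44. Kcna1, an axonal Shaker pore, spanned 11.56 to 11.80. At the other end Kcnf1 spanned 1.64 log2 units, from 7.78 in agomelatine animal 3 to 9.41 in stress animal 3, and Kcnk9, an acid-sensitive leak channel, spanned 1.28, with 9.87 in stress animal 2 and 11.15 in fluoxetine animal 3. Kcnj16, a rectifier that pairs with the glial Kcnj10, ran from 7.81 to 8.71, both extremes among stress animals. These wide genes did not pass the test among the groups described below (adjusted p = 0.955, 0.692 and 0.925). The median SD between animals of a group was 0.10 for the 72 genes in control, stress and agomelatine animals and 0.07 in imipramine animals. For all tested genes it was 0.07 in control, 0.08 in stress, 0.11 in agomelatine and 0.06 in imipramine animals.

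**Figure D2:**
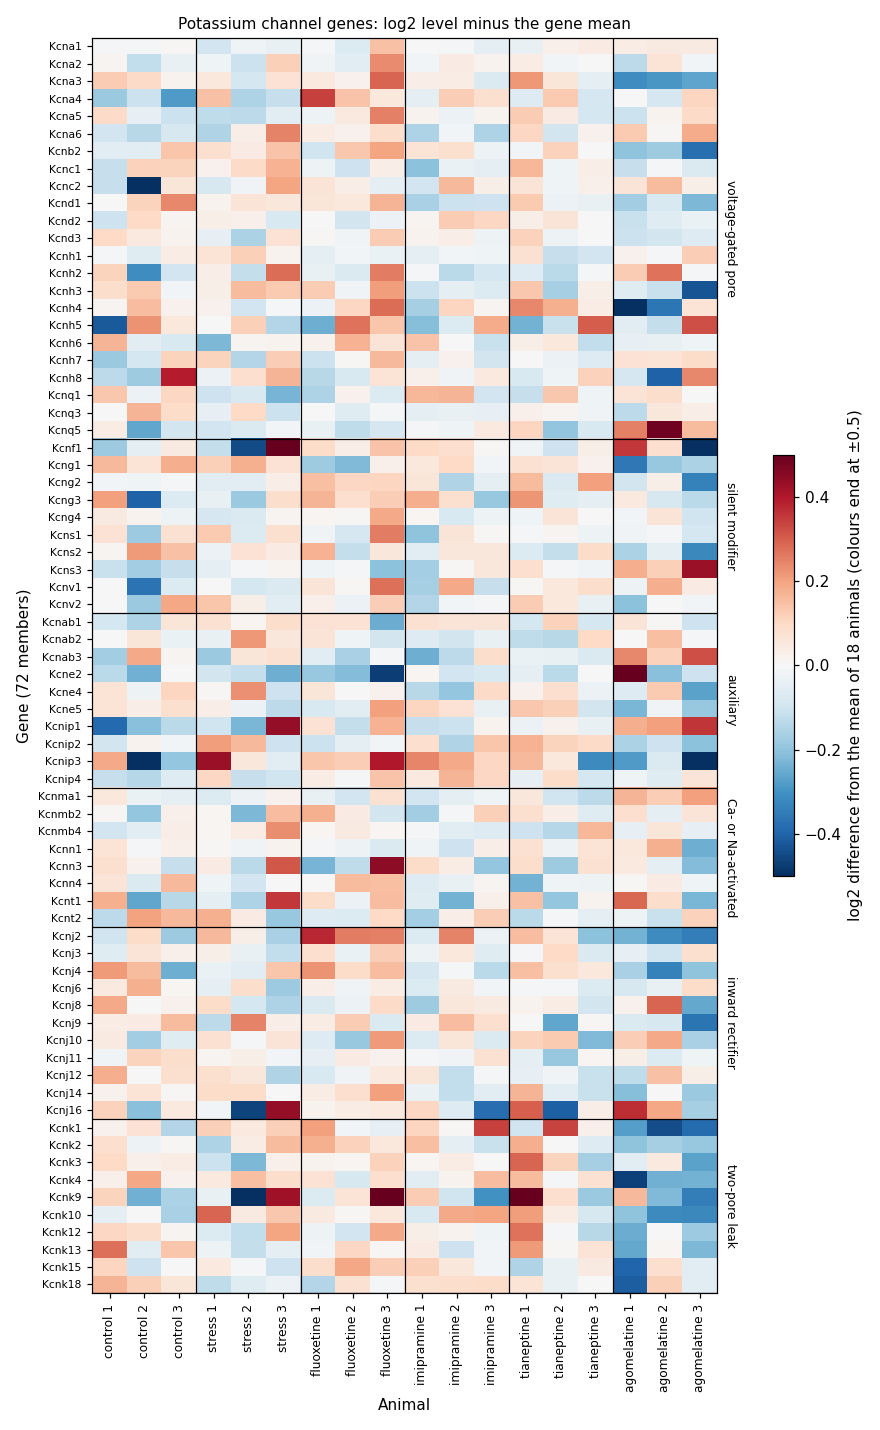
Log2 level minus the gene's mean over 18 animals (colour, ending at ±0.5) for the 72 potassium channel genes (y axis, by role) in each animal (x axis). Kcna3, Kcnk1, Kcnk4 and Kcnk10 are low in all 3 agomelatine animals, and Kcnq5 is high, while Kcnf1 and Kcnk9 vary between animals of the same group.

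Kcne2 and Kcnj13 moved with single animals rather than with a group. Kcne2, a small accessory subunit known from the choroid plexus, was at 10.2 in agomelatine animal 1 and between 7.37 and 7.85 in the other 17 animals. Kcnj13, an inward rectifier of choroid plexus epithelium that was below the signal filter on average, was at 12.4 in the same animal, 8.44 in stress animal 1 and 5.93 to 6.66 elsewhere. Those are the animals with the high choroid plexus scores of 3.46 and 1.08. The group difference of Kcne2 between agomelatine and stress was 0.83 ± 0.40 (SE) and did not pass (adjusted p = 0.189), and the other agomelatine animals, at 7.63 and 7.73, lay within the 7.59 to 7.75 of stress animals. Kcnq1, which pairs with Kcne2 in epithelia, had 7.43 in agomelatine animal 1 and 7.26 in stress animal 1, within the 7.13 to 7.53 of the other animals.

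Whether the 6 groups differed at all was asked with limma's F test, adjusted over all 10804 genes. It called 7 of the 72 potassium channel genes (9.72%), against 6.76% of all genes: Kcng1 (adjusted p = 0.00688), Kcnk4 (0.0117), Kcna3 (0.0162), Kcnk1 (0.0216), Kcnj2 (0.028), Kcnk10 (0.0293) and Kcnq5 (0.0308). At an unadjusted p under 0.05 the share was 27.8% of these genes and 23.9% of all genes, so the set as a whole lay near the background. Without agomelatine animal 1 only Kcng1 was called (1 gene), and without agomelatine animal 2 Kcng1 and Kcnk4 were (2 genes). The other 5 genes lost the call when either animal was left out.

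Stress alone was compared with untreated animals to ask what the stress did to these channels. limma called 0 of 72 genes (3 at an unadjusted p under 0.05) and 0% of all genes. Values of the 3 animals did not overlap between the groups for 5 genes (6.94%), fewer than the 13.1% of all genes, and the median log2 difference was 0.01 against 0.02. The gene with the smallest p was Kcnk10, a lipid- and stretch-sensitive leak channel, at 9.29, 9.04 and 9.13 in stress animals and 8.95, 8.99 and 8.83 in controls. All its stress values lay above the control values, by 0.23 ± 0.09 on average (adjusted p = 0.828 by limma). The control values were 9.036, 9.027 and 8.96 on the first arrays, the highest of them next to the lowest stress value of 9.04. On the repeat arrays they were 8.86, 8.95 and 8.70. Kcnq1, an M-type family pore, had 7.26, 7.29 and 7.13 under stress and 7.50, 7.33 and 7.46 in controls. Its difference of -0.21 ± 0.09 again had no overlap and an adjusted p of 0.828. Kcnip1, which binds A-type pores and is known from interneurons, read 8.62, 8.49 and 9.16 in stress animals and 8.33, 8.51 and 8.59 in controls. Stress animal 3 was far above the rest, the mean difference was 0.28 ± 0.13 (adjusted p = 0.828), and the same animal had the CA pyramidal score of 0.30. Its interneuron score (8 of 9 genes measured) was 0.27, the highest of any animal. The part of either cell type in the Kcnip1 values was not tested. The Kcnip1 difference was 0.14 ± 0.12 against the first control arrays and 0.42 ± 0.13 against the repeat arrays (adjusted p = 0.11). Kcnc2, a fast-spiking pore of interneurons, differed by 0.22 ± 0.11 with control animal 2 low at 9.74, and Kcnk13, a leak channel of microglia, by -0.18 ± 0.09, both at an adjusted p of 0.828.

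Fluoxetine, a serotonin reuptake inhibitor, was compared with stress alone, as were the other drugs, so all drug comparisons share the same 3 stress animals. limma called 0 of 72 genes for fluoxetine (4 at an unadjusted p under 0.05) and 0% of all genes. Groups did not overlap in 12.5% of the potassium channel genes and 10.8% of all genes. Kcng1, a silent subunit that joins family b pores, was at 10.86, 10.81 and 11.06 with fluoxetine and at 11.16, 11.21 and 11.11 under stress. The fluoxetine values were all lower, by 0.25 ± 0.07 on average, with an adjusted p of 0.959 by limma. Animals were also weighted by how closely they followed their group mean over the tested genes, with no separate measure of array quality. The difference was then -0.32 ± 0.05 (adjusted p = 0.0153 by limma), the only call in the set. Fluoxetine animal 3, the one nearest to stress at 11.06, had the lowest weight of all animals (0.31) in that fit. The weights of fluoxetine animals 1 and 2 were 2.22 and 2.01, and those of agomelatine animals 0.48, 0.60 and 0.38. Kcnj2, a strong inward rectifier that steadies the resting potential, read 9.24, 9.12 and 9.12 with fluoxetine and 9.03, 8.90 and 8.70 under stress. Its groups did not overlap either, and the difference was 0.29 ± 0.11 (adjusted p = 0.959). Kcna4, an inactivating Shaker pore of axons, and Kcna5 were higher in mean by 0.22 ± 0.09 and 0.20 ± 0.08 (adjusted p = 0.959 and 0.962).

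Imipramine, a tricyclic monoamine reuptake inhibitor, and tianeptine, an atypical tricyclic, also gave 0 called genes of 72 by limma (4 and 0 at an unadjusted p under 0.05), and 0% of all genes in either comparison. Non-overlapping groups made up 11.1% of the potassium channel genes with imipramine, against 19.7% of all genes, and 4.17% with tianeptine, against 11.2%. Kcnc1, a fast delayed rectifier, read 10.30, 10.48 and 10.46 with imipramine and 10.53, 10.60 and 10.68 under stress. The imipramine values were all lower, by 0.19 ± 0.07 on average (adjusted p = 0.465). Kcnd1, an A-type pore, stood at 8.36, 8.42 and 8.42 against 8.54, 8.59 and 8.58 under stress, tight in both groups and apart, with a difference of -0.17 ± 0.07 (adjusted p = 0.466). Kcnq1, with its signal near the filter value, was at 7.53, 7.53 and 7.26 with imipramine. That was 0.22 ± 0.09 above stress with 1 overlapping animal (adjusted p = 0.466). Kcnip4, an A-type channel partner, differed by 0.14 ± 0.07 and Kcnh3 by -0.18 ± 0.09. With tianeptine the genes with the smallest p were Kcnh1 (-0.11), Kcnab2 (-0.14), Kcnmb4 (-0.12), Kcnk13 (0.16), Kcnk3 (0.18) and Kcna5 (0.13), none with an unadjusted p under 0.05. The widest mean differences were those of the variable genes Kcnip3 (-0.18) and Kcnk9 (0.25). A median difference of -0.01 was found for the 72 genes with either drug, against -0.02 for all genes.

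**Figure D3:**
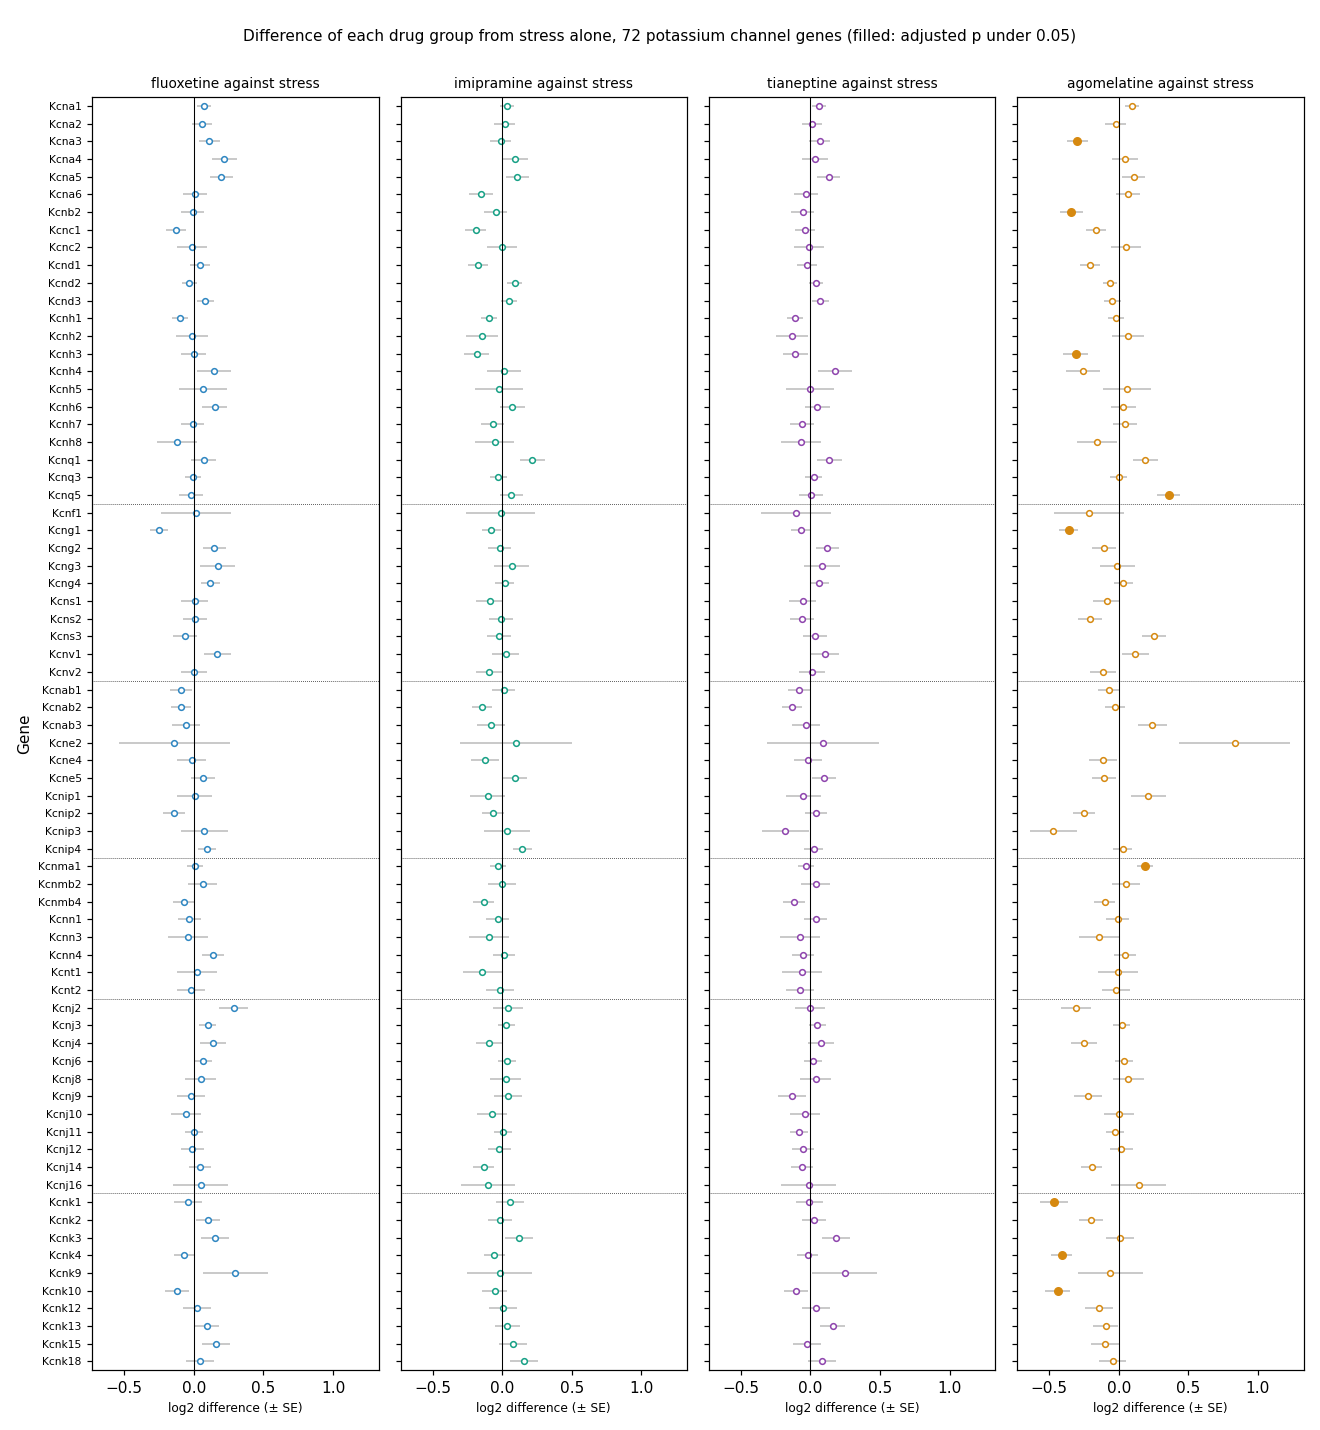
Log2 difference of each drug group from stress alone (x axis, with SE bars) for the 72 potassium channel genes (y axis, by role), 1 panel per drug, with n = 3 animals per group. Filled points passed an adjusted p under 0.05 in limma: 9 genes with agomelatine and 0 with the other drugs.

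Agomelatine activates melatonin receptors and blocks a serotonin receptor. With all 18 animals weighted equally, it was the only drug with potassium channel genes called against stress. Against stress 9 of 72 genes passed (12.5%, against 10.8% of all genes): 2 rose (4.18% of all genes did) and 7 fell (6.58% of all). Groups did not overlap in 21 of the 72 genes (29.2%), against 25.2% of all genes, so the set was close to the background in both counts. The median log2 difference was -0.03 for the set and -0.03 for all genes. The genes that fell were 3 leak channels, 3 voltage-gated pores and 1 silent subunit, and those that rose were an M-type pore and the large-conductance calcium-activated pore.

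Of the 10 leak channels 3 fell. Kcnk4, a leak channel opened by stretch and fatty acids, had 10.37, 10.60 and 10.60 in agomelatine animals and 10.89, 10.99 and 10.93 in stress animals. Control animals read 10.87, 11.03 and 10.86, fluoxetine 10.91, 10.76 and 10.92, imipramine 10.79, 10.86 and 10.99, and tianeptine 10.996, 10.83 and 10.92. All agomelatine values lay below the other 15, and the difference from stress was -0.41 ± 0.08 (adjusted p = 0.00334). Kcnk10, the stretch-sensitive relative named above, stood at 8.79, 8.67 and 8.67 with agomelatine and, as given, at 9.04 to 9.29 under stress. The lowest of the other 12 animals was a control at 8.83, so agomelatine was again apart, and the difference from stress was -0.44 ± 0.09 (adjusted p = 0.0053). Kcnk1, a weakly conducting leak channel abundant in the hippocampus, read 11.55, 11.38 and 11.44 with agomelatine and 11.95, 11.88 and 11.94 under stress. The rest ran from 11.68 to 12.17, above every agomelatine animal, and the difference was -0.46 ± 0.10 (adjusted p = 0.0076). In this comparison 1 of the 10 leak channels lay above 0, against 43.4% of all genes, their median was -0.12, and those not called included Kcnk2 (-0.20 ± 0.09, adjusted p = 0.137). Kcnk2 values were 9.19, 9.22 and 9.20 with agomelatine, below the 9.23 to 9.55 of stress animals. Kcnk9 was at 10.64, 10.26 and 10.13, inside the stress range, with -0.06 ± 0.24.

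Repeat arrays of the control animals bear on these leak channels. On the repeat array Kcnk4 was lower than on the first array of the same animal by 0.10 to 0.33, with a mean of -0.23. Kcnk1 was lower by 0.18 to 0.23, and Kcnk10 by 0.07 to 0.26. All 3 genes therefore shifted down in all 3 animals with no change of treatment. Such one-sided shifts occurred in 30 of the 72 genes (41.7%) and in 44.7% of all genes, and the labels do not tell in which round each drug array was run. Against the first control arrays alone, agomelatine differed by -0.51 ± 0.08 in Kcnk4, -0.45 ± 0.10 in Kcnk1 and -0.30 ± 0.09 in Kcnk10 (adjusted p = 0.000582, 0.00595 and 0.0259). Against the repeat arrays alone the differences were -0.28 ± 0.08, -0.25 ± 0.10 and -0.13 ± 0.09 (adjusted p = 0.0341, 0.14 and 0.428). The part of the array round in the drug comparison was not tested. Of the 10 leak channels 8 had a lower mean on the repeat arrays, and Kcnk2 was the 1 further gene lower in all 3 animals (-0.31 to -0.06). Among the other genes called against stress, Kcna3 was lower on all 3 repeat arrays (-0.17 to -0.02), Kcng1 had a mean shift of -0.10, and Kcnma1 was higher on all 3 (0.03 to 0.09). Kcnma1 differed between agomelatine and control by 0.21 ± 0.06 on the first arrays (adjusted p = 0.0196) and by 0.14 ± 0.06 on the repeat arrays (0.15). Mean shifts were 0.02 for Kcnq5, -0.02 for Kcnb2 and 0.01 for Kcnh3.

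Among voltage-gated pores, 3 fell and 1 rose of 23, with a median of 0.00. Kcna3, a Shaker-type delayed rectifier, had 10.59, 10.61 and 10.64 in agomelatine animals and 10.95, 10.81 and 10.97 in stress animals. No other animal was below 10.83, and the difference of -0.30 ± 0.08 passed (adjusted p = 0.0167), though not without stress animal 3 (0.0659). Kcnb2, a slow delayed rectifier of somata and dendrites, was at 8.88, 8.90 and 8.71 against 9.16, 9.13 and 9.22. It lay below the remaining animals (8.98 to 9.28) as well, with -0.34 ± 0.08 (adjusted p = 0.014, and 0.0541 without stress animal 3). Kcnh3, an ether-a-go-go-like pore of forebrain neurons, read 10.35, 10.30 and 9.97 with agomelatine and 10.44, 10.57 and 10.54 under stress. Agomelatine animal 3 carried the lowest value and imipramine animals (10.30 to 10.36) and a tianeptine animal (10.24) overlapped the other two. The difference was -0.31 ± 0.09 (adjusted p = 0.0349) and was lost without stress animal 2, stress animal 3 or agomelatine animal 3, up to an adjusted p of 0.143. Kcnq5, a pore of the M current that restrains repetitive firing, went the other way, with 11.17, 11.41 and 11.08 against 10.83, 10.85 and 10.91. No other animal exceeded 11.03, and the difference was 0.36 ± 0.09 (adjusted p = 0.0129, and 0.0528 without agomelatine animal 2). Its relative Kcnq3 did not pass.

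Kcng1, the silent partner of family b pores, had 10.68, 10.85 and 10.88 with agomelatine. It read 11.16, 11.21 and 11.11 under stress, 11.20, 11.10 and 11.22 in controls, 11.09, 11.14 and 11.02 with imipramine and 11.11, 11.10 and 11.06 with tianeptine. Only fluoxetine animals overlapped those of agomelatine. The difference from stress was -0.36 ± 0.07 (adjusted p = 0.00334), the only silent modifier of 10 called, and it held whichever single animal was left out (up to 0.0185). Kcns3, another silent subunit, was at 7.64, 7.58 and 7.89 with agomelatine against 7.41, 7.45 and 7.47, apart but not called (0.26 ± 0.09, adjusted p = 0.0613), and it passed when array medians were made equal (0.31 ± 0.10, 0.0448).

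The calcium-activated pore Kcnma1, which shapes the fast repolarisation after a spike, had 11.68, 11.64 and 11.72 with agomelatine and 11.45, 11.49 and 11.54 under stress. The other animals ended at 11.59, so agomelatine was highest, by 0.19 ± 0.06 over stress (adjusted p = 0.0371). This call was lost when any of 5 single animals was left out, up to an adjusted p of 0.104, and it was the 1 call of 8 genes in that role. Its beta subunit Kcnmb4, the neuronal one, did not pass. No inward rectifier (11 genes) and no auxiliary subunit (10 genes) was called against stress. Nearest among rectifiers was Kcnj2, at 8.63, 8.55 and 8.52 with agomelatine and 9.03, 8.90 and 8.70 under stress. It was lower in each animal, by 0.31 ± 0.11 on average (adjusted p = 0.0667). Kcnj10, the rectifier of astrocytes and oligodendrocytes, was at 10.85, 10.91 and 10.56 against 10.80, 10.72 and 10.79, with a difference of 0.005 ± 0.108. Kcnip3, a calcium-binding partner of A-type pores, had 11.12, 11.33 and 10.79 against 11.83, 11.46 and 11.35. Its difference of -0.47 ± 0.17 was among the widest, but the animals of each group were spread and it did not pass (adjusted p = 0.0771). Kcnip2 was nearest to the threshold of all genes not called (-0.25 ± 0.08, adjusted p = 0.0514), and its second probe set differed by -0.10.

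**Figure D4:**
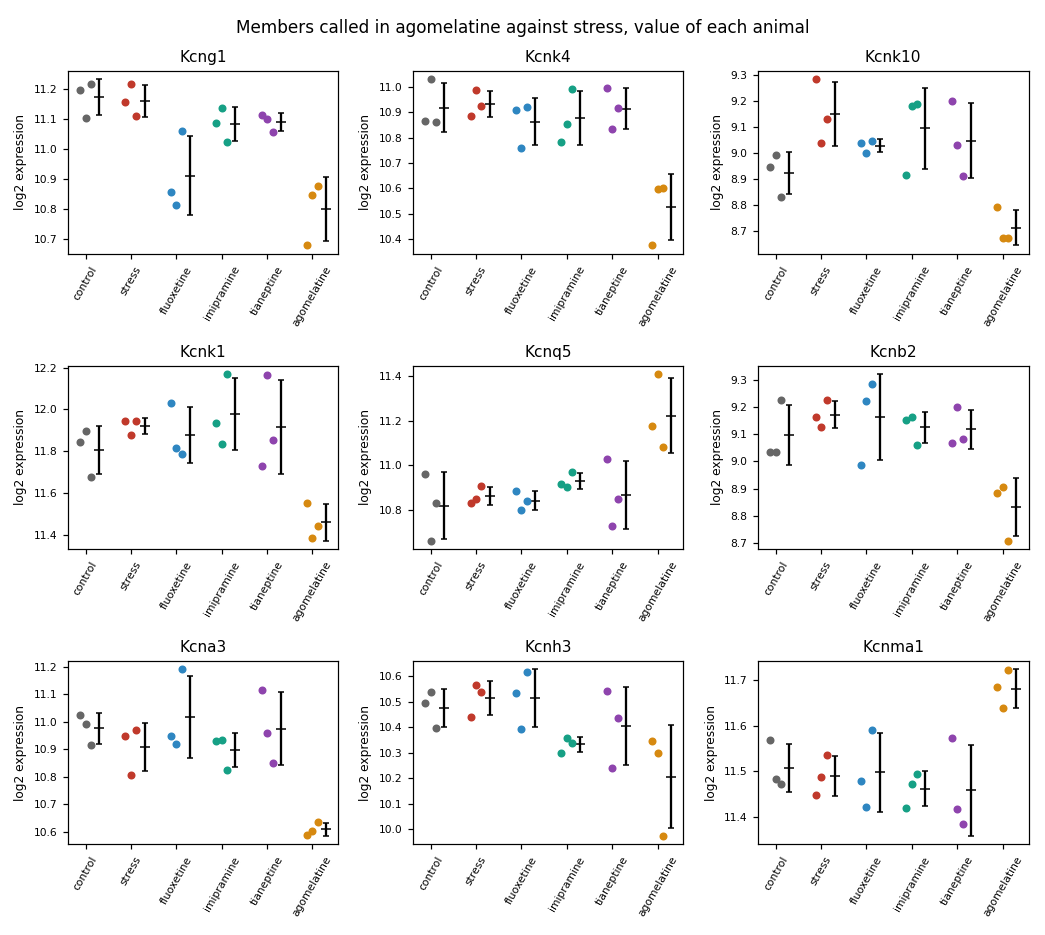
Log2 expression (y axis, 1 panel per gene, axes not starting at 0) of each animal by group (x axis) for the 9 potassium channel genes called between agomelatine and stress, with the mean and SD of 3 animals beside the points. Kcnk4, Kcnk10, Kcnk1, Kcnb2 and Kcna3 are lower in agomelatine than in all other animals, Kcnq5 and Kcnma1 are higher, and Kcng1 overlaps fluoxetine.

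Several well-studied neuronal channels did not pass in any comparison. Kcna1 stood at 11.60 ± 0.04 (SD, n = 3) under stress, 11.65 ± 0.01 in controls and 11.70 ± 0.01 with agomelatine, and the difference between agomelatine and stress was 0.09 ± 0.05 (SE). Its axonal partner Kcna2 differed by -0.02 ± 0.07 in the same comparison, and Kcnab1, a beta subunit of Shaker pores, by -0.07 ± 0.08. Kcnd2 was at 12.14 ± 0.06 (SD) under stress and 12.07 ± 0.04 with agomelatine, a difference of -0.06 ± 0.05 (SE). Kcnq3, which pairs with Kcnq5 in the M channel, was at 11.43 in both groups, with SDs of 0.10 and a difference of 0.00 ± 0.06. Unlike its partner it therefore showed no shift beyond the spread between animals, and a test of the difference between both genes was not made. The G protein-gated rectifiers Kcnj3 and Kcnj6 differed by 0.02 ± 0.06 and 0.04 ± 0.07. Kcnj6 was lower in mean under stress than in controls, at 11.22 ± 0.14 against 11.35 ± 0.09 (SD), with overlapping animals and a difference of -0.13 ± 0.07 (SE, adjusted p = 0.828). Kcnj11, the pore of ATP-sensitive channels, ran from 8.51 to 8.81 in all, and Kcnt1, a sodium-activated pore, from 8.69 to 9.30, differing by -0.03 ± 0.07 and 0.00 ± 0.14 between agomelatine and stress.

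Cell type markers moved in the same animals. Between agomelatine and stress all 11 oligodendrocyte genes measured rose (median 0.48), and 2 of 8 CA pyramidal genes rose (median 0.25). Of 5 granule neuron genes 2 fell, with all 5 below 0 (median -0.24). Of 9 astrocyte genes 1 fell, with all 9 below 0 (median -0.18). Among all genes 4.18% rose and 6.58% fell. The part of these cell types in the channel results was not tested. With agomelatine animal 1 and stress animal 1 left out, the animals with high choroid plexus scores, limma called 6 genes between agomelatine and stress: Kcnb2, Kcng1, Kcnh3, Kcnk1, Kcnk4 and Kcnk10. Kcna3 then had -0.27 ± 0.10 (adjusted p = 0.0926), Kcnq5 0.37 ± 0.11 (0.0501) and Kcnma1 0.17 ± 0.07 (0.162).

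Agomelatine was also compared with the other groups, always with the same 3 agomelatine animals. Against control 10 genes passed of 72 (9.59% of all genes), 3 higher (5.28% of all) and 7 lower (4.31%). Against fluoxetine 15 passed (11.8% of all), 3 higher (5.07%) and 12 lower (6.71%). Against imipramine 10 passed (9.39% of all), 3 higher (5.04%) and 7 lower (4.35%), and against tianeptine 11 passed (13.5% of all), 2 higher (6.51%) and 9 lower (6.98%). As the stress animals cancel, the last 3 comparisons are also the test of whether the effect of agomelatine differed from that of each other drug. Kcnk4, Kcnk1, Kcna3, Kcnb2 and Kcnq5 passed in all 5 comparisons. The range over these was -0.41 to -0.34 for Kcnk4, -0.52 to -0.35 for Kcnk1, -0.41 to -0.29 for Kcna3, -0.34 to -0.27 for Kcnb2 and 0.29 to 0.40 for Kcnq5. Kcnb2 against control was close to the threshold (adjusted p = 0.0488) and was called in only 3 of the 18 fits that left out 1 animal (up to 0.177). Kcnk1 against control was called in 14 of these fits (up to 0.153), and Kcnq5 against imipramine in 13 (up to 0.146). Kcnk10 passed against every group except control (-0.21 ± 0.09, adjusted p = 0.138) and Kcng1 against every group except fluoxetine (-0.11 ± 0.07, adjusted p = 0.291). Kcnma1 also passed against every group except control (0.17 ± 0.06, adjusted p = 0.0612). Its call against fluoxetine (0.0427) held in 8 of the 18 fits (up to 0.158).

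Some genes were called in these comparisons and not against stress. Kcnj2 was lower with agomelatine than with fluoxetine by 0.59 ± 0.11 (adjusted p = 0.00191), the widest called difference of the set, and than with imipramine by 0.35 ± 0.11 (0.0458). The first call held whichever animal was left out, and the second in 7 of 18 such fits (up to 0.213). The agomelatine values, given above, were the 3 lowest of 18, and the highest was a fluoxetine animal. The rectifier Kcnj4 read 9.41, 9.24 and 9.38 with agomelatine and 9.80, 9.67 and 9.73 with fluoxetine, a difference of -0.39 ± 0.09 (0.0127). Kcnip3 differed from fluoxetine by -0.55 ± 0.17 (0.0427) and Kcnk2 by -0.30 ± 0.09 (0.0283). These calls held in 8 and 14 of the 18 fits (up to 0.153 and 0.0913). That of Kcnk2 was lost without fluoxetine animal 1 or 2 or agomelatine animal 1 or 3. Kcnh4 differed from fluoxetine by -0.41 ± 0.12 (0.0388) and from tianeptine by -0.44 ± 0.12 (0.0248). Its agomelatine values of 8.13, 8.34 and 8.76 were far apart, and animal 3 was inside the range of the other groups. Either call held in 14 of the 18 fits, and both were lost without agomelatine animal 1 or 2. The first was also lost without fluoxetine animal 2 or 3, and the second without tianeptine animal 1 or 2. Against control, Kcnip1 was higher with agomelatine by 0.49 ± 0.13 (0.0205), at 8.90, 8.93 and 9.08 against 8.33, 8.51 and 8.59. Its control values were lower on the repeat arrays by 0.19 to 0.44, and the difference was 0.35 ± 0.12 against the first arrays (0.0539) and 0.63 ± 0.13 against the repeat arrays (0.008). Kcns3 was higher by 0.38 ± 0.09 (0.0111), Kcnd1 lower by 0.28 ± 0.07 (0.0231) and the silent subunit Kcns2 lower by 0.30 ± 0.09 (0.0344). Kcns3 was also called higher than with fluoxetine (0.0223) and imipramine (0.049). The call against imipramine held in only 2 of the 18 fits (up to 0.194). Against the repeat control arrays alone the calls of Kcnd1 and Kcns2 against control were lost (0.0675 and 0.0952). Each held in 14 of the 18 fits that left out 1 animal. Both were lost without control animal 2 or 3 or agomelatine animal 1 or 3, all animals of the groups compared.

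Genes that work with potassium channels but are not Kcn genes were taken as a list of 28, of which 24 were measured: scaffolds, clustering proteins, sulfonylurea receptors, hyperpolarisation-activated channels and others. limma called 0 of the 24 in stress against control and in fluoxetine, imipramine or tianeptine against stress (1, 1, 4 and 1 at an unadjusted p under 0.05). Between agomelatine and stress 2 rose and 1 fell, with a median of 0.04, a share of calls near the 10.8% of all genes. Cntn2, an adhesion protein that clusters Shaker channels beside myelinated nodes and is also made by oligodendrocytes, rose by 0.30 ± 0.08 (adjusted p = 0.0245). Abcc9, the sulfonylurea receptor of vascular ATP-sensitive channels, rose by 0.27 ± 0.09 (0.0484). Amigo1, an auxiliary protein of family b pores, fell by 0.18 ± 0.05 (0.0258), in the comparison in which Kcnb2 and Kcng1 fell. Against control 4 of the 24 were higher with agomelatine (5.28% of all genes were) and 2 lower (4.31%). The higher ones included Adam23 (0.52 ± 0.10, adjusted p = 0.00333) and Dpp10, an auxiliary protein of A-type channels (0.63 ± 0.16, 0.0225), and the lower ones were Amigo1 and Nedd4l.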

How the data were processed

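Rat dentate gyrus RNA was measured on Affymetrix Gene ST arrays, with 3 animals in each of 6 groups and 21 arrays. Per the submitters' processing notes, the authors ran RMA in Expression Console 1.2 (Affymetrix), and the deposited values are its log2 expression per probe set. RMA brings arrays to a common distribution, so changes shared by most genes are removed, and shrinks differences at low signal. Of 29214 probe sets, 15310 had 1 symbol in the platform annotation, 323 had several and 13581 were unnamed here. All 72 symbols matched RefSeq GRCr8 by gene number.

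Control arrays were averaged per animal. Group means over the 18 animals were fitted with limma 3.58.1 under R 4.3.3 (lmFit, eBayes with trend), which left 12 residual degrees of freedom. Tests were 9 pairwise comparisons and an F test, each adjusted by Benjamini-Hochberg over 10804 genes. A gene rose, fell or was called at an adjusted p under 0.05. The code was tested on simulated data. Values are log2, errors are SE for differences and SD between animals elsewhere.

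Genes called in any test, those with the smallest p and a panel of well-known channels were named. Some panel genes are not reported here. The members and lists were chosen with earlier results of these data known. Alternatives covered control arrays, filters, array medians, array weights, variance trend, the replicate block, all arrays, probe set means and each animal left out.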

Additional observations from a re-analysis of the deposited data

Results flagged for a closer look

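Kcnj13, an inward rectifier gene of choroid plexus epithelium that was too low on average to be tested, had a log2 level of 12.4 in agomelatine animal 1, above the highest control animal at 6.51. The effect against stress differed between agomelatine and another drug, by limma's direct comparison of the drugs, for 15 potassium channel genes with fluoxetine (20.8%, against 11.8% of all genes), 10 with imipramine (13.9%, against 9.39%) and 11 with tianeptine (15.3%, against 13.5%).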

How the results depend on the processing

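With array weights the called potassium channel genes numbered 3 among the 6 groups, 1 in fluoxetine against stress, 4 in agomelatine against stress, and 5, 7 and 6 in agomelatine against control, fluoxetine and tianeptine. Without the animals with high choroid plexus scores, an alternative chosen after seeing the data, the counts were 1 among the 6 groups and 6, 3 and 7 in agomelatine against control, imipramine and tianeptine. Leaving out each animal in turn gave 1 to 9 genes among the 6 groups, 7 to 12 in agomelatine against stress, and 4 to 11, 8 to 18, 2 to 11 and 6 to 12 in agomelatine against control, fluoxetine, imipramine and tianeptine. Leaving out an animal gave 0 genes in stress against control and in fluoxetine, imipramine and tianeptine against stress. Kcng1, Kcnk4 and Kcnk10 were called between agomelatine and stress under all 29 alternatives. Of the 80 single-gene differences recomputed, those called or with the smallest p, 0 changed direction. Many alternatives leave a group difference itself unchanged, so this count says little about stability. Over 2308 recomputed values a call was lost in 236 and gained in 4. Other named differences were not recomputed. Replicate numbers did not pair the animals (median correlation of same-numbered deviations -0.017). With the replicate block 10 genes were called in agomelatine against stress and 7 among the 6 groups. The cause of these changes was not tested. With 3 animals per group, small differences can be missed.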
